A study of Mus musculus with 10 samples.

Results

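A set of 8 genes of atrial heart muscle was followed in heart RNA as a gauge of how much atrial tissue each sample held. The genes were taken by name: Myl7, Myl4, Sln, Sbk2, Stard10, Bmp10, Dkk3 and Nr2f2. Of these 8 genes, 7 were among the 15341 genes of the count table, and 5 had enough reads to be tested between groups. Bmp10 had no row in the table and was not analysed here.

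RNA sequencing was done on hearts of 10 male mice, 5 described as lacking sphingosine 1-phosphate in plasma (S1Pless, genotype Sphk1f/-:Sphk2f/-:Mx1Cre+) and 5 littermate controls (Sphk1f/-:Sphk2f/-:Mx1Cre-). Both groups therefore carried a floxed over a null allele of Sphk1 and of Sphk2, the genes of the sphingosine kinases, and differed in Mx1-Cre, a Cre recombinase driven by a promoter that interferon switches on, active mainly in blood-forming cells and also in some other cells. The sources used here do not give the age of the animals, any treatment to induce the promoter, or the part of the heart that was taken. Libraries held 17204491 to 20202283 counted reads in controls and 16354071 to 20832566 in S1Pless hearts, and 1 read was worth 0.0451 to 0.0658 CPM (reads scaled to a common library size with TMM factors). Mean CPM were 1.21 ± 0.357 (control) and 0.723 ± 0.213 (S1Pless) for Sphk1, and 20.2 ± 2.30 and 16.8 ± 1.94 for Sphk2 (SD, n = 5 each), and the groups overlapped in both. Neither passed edgeR's quasi-likelihood test (Benjamini-Hochberg adjusted p = 0.168 and 0.180), so counts of these genes in heart RNA check the genotype labels only in part.

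Atrial and ventricular heart muscle cells build their sarcomeres from different myosin light chains. Atrial cells use the regulatory light chain of Myl7 and the essential light chain of Myl4, and ventricular cells use those of Myl2 and Myl3. The calcium pump of the sarcoplasmic reticulum is likewise held in check mainly by sarcolipin (Sln) in atria and by phospholamban (Pln) in ventricles. In adult mouse hearts Myl7 and Sln are close to absent from ventricular muscle, while Nr2f2, Dkk3 and Stard10 are also expressed in cells that are not atrial muscle.

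The upstream sequences of Myl7, Myl4 and Myl3 are shown because Myl7 and Myl4 were high together in 1 heart, and Myl3 is the ventricular counterpart of Myl4. They come from RefSeq on build GRCm38.p6 and cover the 250 bases before the annotated start, 5′ to 3′ on the gene's own strand. Myl7 lies on the minus strand at chr11:5898783-5899032, Myl4 on the plus strand at chr11:104550413-104550662, and Myl3 on the plus strand at chr9:110763428-110763677. Capitals mark matches, on either strand, to the CArG box, to the MEF2 site, to GATAA and to AGGTCA.
Myl7: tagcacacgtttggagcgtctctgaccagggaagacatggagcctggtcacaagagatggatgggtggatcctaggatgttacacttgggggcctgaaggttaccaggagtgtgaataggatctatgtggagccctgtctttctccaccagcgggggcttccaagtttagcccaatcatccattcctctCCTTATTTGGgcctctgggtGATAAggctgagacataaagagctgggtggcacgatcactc
Myl4: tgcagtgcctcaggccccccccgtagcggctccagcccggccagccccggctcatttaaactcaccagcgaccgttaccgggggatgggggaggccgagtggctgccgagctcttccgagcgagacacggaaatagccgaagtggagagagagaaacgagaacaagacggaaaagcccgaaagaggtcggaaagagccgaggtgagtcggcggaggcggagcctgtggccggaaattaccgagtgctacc
Myl3: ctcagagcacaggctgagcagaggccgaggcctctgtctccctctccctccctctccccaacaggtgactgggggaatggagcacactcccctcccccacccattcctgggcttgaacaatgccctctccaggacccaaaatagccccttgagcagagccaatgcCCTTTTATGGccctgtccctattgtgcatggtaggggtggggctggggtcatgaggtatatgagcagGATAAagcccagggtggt
The Myl7 window held a CArG box, the motif bound by serum response factor, 51 bases before the start, and GATAA, the core of a GATA factor site, 36 bases before it. The Myl3 window held the same pair of motifs, at 75 and 13 bases. None of the 4 motifs was found in the Myl4 window, which says only that these letters are not there. Of 32851 RefSeq promoter windows of 250 bases, 1.47% held a CArG box, 2.92% a MEF2 site, 22.6% GATAA and 14.0% AGGTCA. Windows were found for 6 of the 8 genes, without Sln and Dkk3. The matches describe the sequence and were not tested as binding sites.

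The genes most specific to atrial muscle were near the limit of detection in 9 of the 10 hearts. Myl7 (ENSMUSG00000020469) had 1, 1, 0, 0 and 2 reads in control replicates 1 to 5. In S1Pless replicates 1 to 5 it had 0, 2, 167, 0 and 3 reads. S1Pless replicate 3 thus stood alone at 9.69 CPM, and each of the other 9 hearts had at most 0.142 CPM.

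Sln (ENSMUSG00000042045), the small membrane protein that slows the calcium pump in atria, followed the same pattern. It had 0, 0, 0, 0 and 3 reads in the controls. In S1Pless replicates 1 to 5 it had 1, 0, 74, 0 and 1 reads. S1Pless replicate 3 reached 4.29 CPM, and the highest of the others was control replicate 5 at 0.168 CPM. Compared with the heart next in order, S1Pless replicate 3 was 68.2-fold higher for Myl7 (95% interval 22.9 to 334) and 25.6-fold higher for Sln (8.43 to 127). These intervals come from exact binomial limits on the reads and cover counting error only.

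Both genes were too low to enter the test between groups. Fitted without the filter on low counts, neither passed edgeR's quasi-likelihood test (Benjamini-Hochberg adjusted p = 0.253 for Myl7 and 0.288 for Sln). The groups overlapped in both genes, and the 9 hearts other than S1Pless replicate 3 had 0 to 3 reads each.

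**Figure D1:**
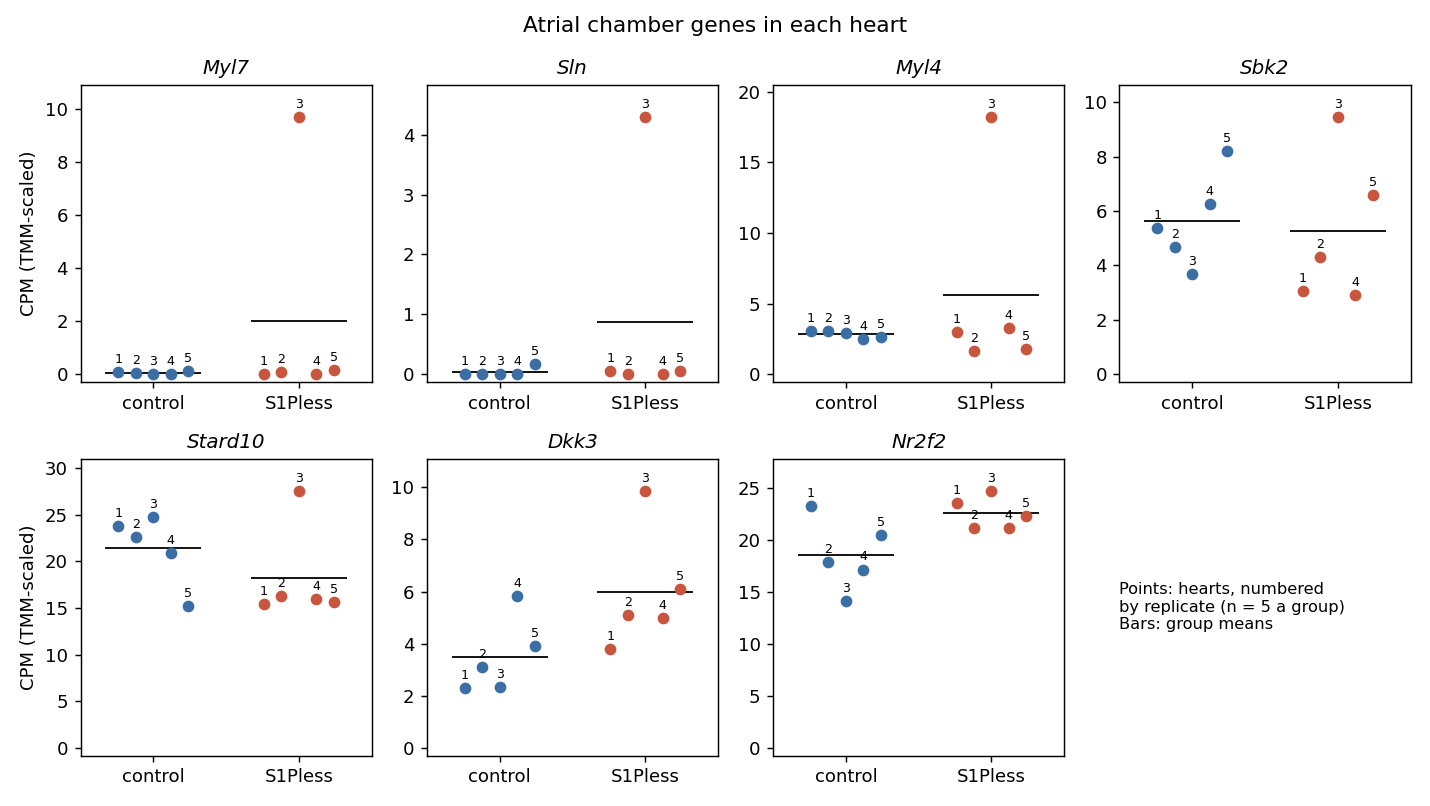
CPM (vertical axes, each from 0 on its own linear scale) of the 7 atrial genes in the table, with 1 point per heart numbered by replicate and a bar at each group's mean (n = 5). S1Pless replicate 3 is the highest point in all 7 panels, at 9.69 CPM for Myl7, 4.29 CPM for Sln and 18.2 CPM for Myl4.

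Myl4 (ENSMUSG00000061086), the atrial essential light chain, was detected in every heart. Its level was 3.09, 3.06, 2.93, 2.50 and 2.62 CPM in control replicates 1 to 5, from 46 to 57 reads. In S1Pless replicates 1 to 5 it was 3.02, 1.65, 18.2, 3.27 and 1.80 CPM, from 33 to 314 reads. S1Pless replicate 3 was 5.56-fold above the next heart (4.25 to 7.38), and the other 4 S1Pless hearts spread on both sides of the controls. The control mean was 2.84 ± 0.264 CPM, and the S1Pless mean was 5.59 ± 7.09 CPM (SD, n = 5 each). This log2 fold change of 0.95 ± 0.62 (SE) did not pass edgeR's quasi-likelihood test (Benjamini-Hochberg adjusted p = 0.429). Without S1Pless replicate 3 the S1Pless mean was 2.44 ± 0.830 CPM and the log2 fold change turned to -0.21 (adjusted p = 0.656). A non-coding gene overlaps Myl4 on the opposite strand, and the sources used here do not give the strand setting of the counting.

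Each atrial gene was also set against its ventricular counterpart within the same heart, which needs no scaling between libraries. In S1Pless replicate 3 Myl7 made up 0.147% of the reads of Myl7 and Myl2 together (Clopper-Pearson 95% interval 0.125 to 0.171%). In the other hearts with a Myl7 read it made up at most 0.00271%, and a count of 0 allowed up to 0.00159 to 0.00250% in the rest. Sln made up 0.0848% of the reads of Sln and Pln in S1Pless replicate 3 (0.0666 to 0.106%). Even in this heart, then, the ventricular gene of each pair supplied nearly all of the reads. Myl4 made up 0.502% of the reads of Myl4 and Myl3 in S1Pless replicate 3 (0.448 to 0.561%), against 0.0353 to 0.0856% in the other 9 hearts. The interval of S1Pless replicate 3 lay above the shares of all other hearts in the 3 pairs.

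**Figure D2:**
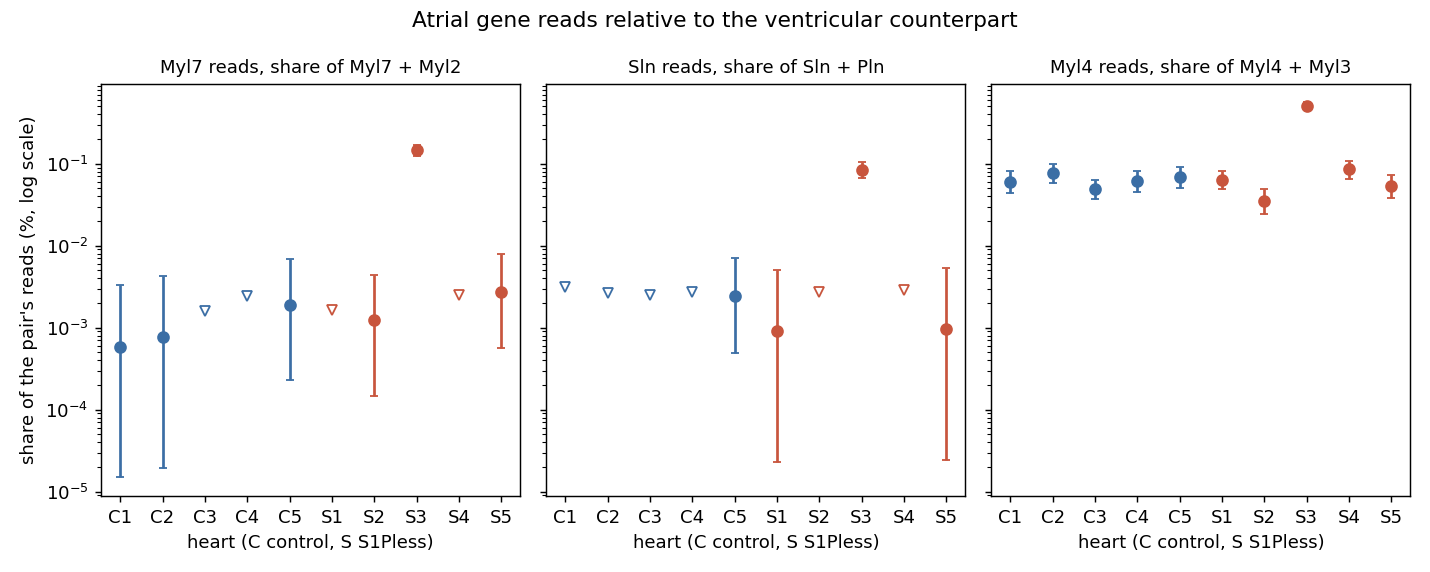
Share of each pair's reads that came from the atrial gene, in percent on a log axis, for each heart (C, control; S, S1Pless). Filled points have Clopper-Pearson 95% intervals and open triangles mark the upper limit that a count of 0 allows; S1Pless replicate 3 is at 0.147% for Myl7, 0.0848% for Sln and 0.502% for Myl4.

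The 3 ratios did not separate the groups. The mean log2 ratio of Myl4 to Myl3 was -10.64 ± 0.242 for control and -10.15 ± 1.48 for S1Pless hearts (SD, n = 5 each), a difference of 0.49 (two-sided exact permutation p = 0.683, adjusted p = 0.683). For Myl7 to Myl2, with 0.5 added to each count because of the zeros, the difference was 1.66 (exact permutation p = 0.413, adjusted p = 0.619). For Sln to Pln it was 1.64 (exact permutation p = 0.333, adjusted p = 0.619). Adjustment was over the 3 ratios, and the smallest p that 252 arrangements allow is 0.00794. Without S1Pless replicate 3 the difference for Myl4 to Myl3 was -0.14, and those for Myl7 to Myl2 and Sln to Pln were 0.18 and 0.30.

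Sbk2 (ENSMUSG00000030433), a kinase gene of atrial muscle, had a baseline in every heart. Its level was 5.39, 4.67, 3.67, 6.26 and 8.21 CPM in the controls. Among S1Pless replicates 1 to 5 it was 3.07, 4.30, 9.46, 2.92 and 6.59 CPM. The groups overlapped over most of their range, and S1Pless replicate 3 was 1.15-fold above control replicate 5, with an interval of 0.916 to 1.45 that includes no difference. The log2 fold change was -0.11 ± 0.31 (SE) and did not pass edgeR's quasi-likelihood test (adjusted p = 0.884), and its sign turned with library totals (0.029) and with scaling to muscle genes (0.061).

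Stard10 (ENSMUSG00000030688) encodes a protein that transfers phospholipids between membranes. It had 23.8, 22.6, 24.8, 20.9 and 15.2 CPM in the controls. S1Pless replicates 1 to 5 had 15.4, 16.3, 27.6, 15.9 and 15.7 CPM. In all, 4 of the S1Pless hearts lay together at 15.4 to 16.3 CPM, below controls 1 to 4 and just above control replicate 5, while S1Pless replicate 3 was the highest of all 10. That heart was 1.11-fold above control replicate 3, with an interval of 0.976 to 1.27 that includes no difference. The log2 fold change was -0.24 ± 0.17 (SE, edgeR adjusted p = 0.465), and without S1Pless replicate 3 it was -0.43 ± 0.13 (adjusted p = 0.0870). The call did not change, but the size moved by more than 1.5 times with this 1 heart.

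Dkk3 (ENSMUSG00000030772), a secreted protein of the Dickkopf family, was low in all hearts. It had 2.30, 3.12, 2.34, 5.83 and 3.91 CPM in the controls. The S1Pless replicates 1 to 5 had 3.79, 5.10, 9.86, 4.99 and 6.11 CPM. S1Pless replicate 3 was 1.61-fold above the next heart (1.28 to 2.04), and control replicate 4 lay above 3 of the S1Pless hearts. The log2 fold change was 0.76 ± 0.29 (SE), with an unadjusted p of 0.0199 and an adjusted p of 0.165 in edgeR's quasi-likelihood test. It was 0.51 without S1Pless replicate 3 (adjusted p = 0.318).

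Nr2f2 (ENSMUSG00000030551) encodes COUP-TFII, a nuclear receptor that specifies atrial muscle and also venous and lymphatic endothelium. It had 23.2, 17.9, 14.1, 17.2 and 20.4 CPM in the controls. The S1Pless replicates 1 to 5 had 23.5, 21.2, 24.7, 21.1 and 22.3 CPM. Control replicate 1 lay inside the S1Pless range and the other 4 controls lay below it. The log2 fold change was 0.28 ± 0.12 (SE), with an unadjusted p of 0.0303 and an adjusted p of 0.200 in edgeR's quasi-likelihood test. An antisense gene overlaps Nr2f2 on the opposite strand. Its order between hearts was unlike that of Myl7: S1Pless replicate 3 was only 1.05-fold above S1Pless replicate 1 (0.923 to 1.20).

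Levels per kilobase of exon give a rough order of the genes. The median over the 10 hearts was 7.67 CPM per kilobase for Stard10, 2.45 for Nr2f2, 1.60 for Sbk2, 1.32 for Dkk3, 0.642 for Myl4 and 0.101 for Myl7, and Sln had a median of 0. The ranges over the hearts of the neighbours Nr2f2 and Sbk2, Sbk2 and Dkk3, and Dkk3 and Myl4 overlapped, and that of Stard10 lay above all of these. In S1Pless replicate 3 the order changed, and Myl7 was first at 16.4 CPM per kilobase, above Stard10 at 11.4. By comparison, the medians of the ventricular genes Myl2, Pln and Myl3 were 3532, 2077 and 1975 CPM per kilobase. Exon lengths are those of an older annotation than the one counted. They join all annotated exons of a gene, 4.64 kilobases for Myl4 and 0.59 for Myl7. The order therefore depends on which transcripts were made, which was not tested.

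S1Pless replicate 3 stood apart in few genes other than these. Of 12260 genes with at least 20 reads in that heart, 4 were at least 3-fold above every other heart: Myl7, Sln, Myl4 and 2610028H24Rik, a gene with no assigned name, at 4.28-fold. The same count was 0 to 3 in 8 of the other hearts and 17 in S1Pless replicate 5. All 7 atrial genes in the table had their highest level in S1Pless replicate 3, whereas 7.52% of the 12992 tested genes did. With libraries scaled to the muscle genes of both chambers, 6 of the 7 did, and Nr2f2 was then highest in S1Pless replicate 1. With TMM scaling, the lead of S1Pless replicate 3 over the next heart was within counting error for Stard10, Sbk2 and Nr2f2. S1Pless replicate 3 had the smallest total, 16354071 reads, and the part of depth in these values was not tested.

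**Figure D3:**
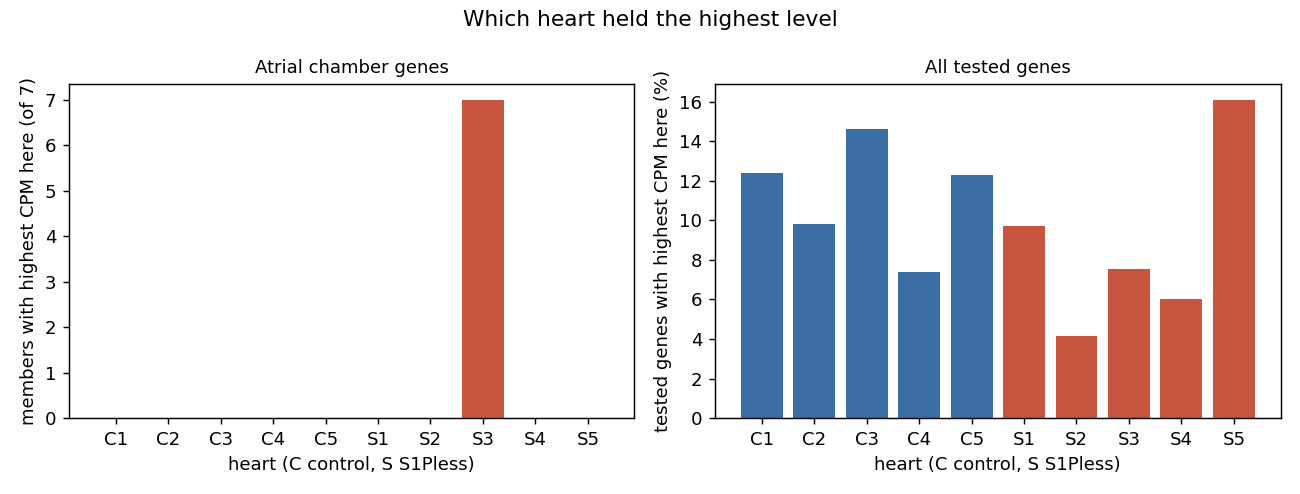
Number of the 7 atrial genes (left) and percent of the 12992 tested genes (right) whose highest CPM was in each heart (C, control; S, S1Pless). All 7 atrial genes fall on S1Pless replicate 3, which holds 7.52% of the tested genes. For Stard10, Sbk2 and Nr2f2 its lead over the next heart is within counting error.

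The atrial genes also differed in how much they varied within a group. The SD of log2 CPM within groups was 2.00 for Myl7, 1.71 for Sln and 0.97 for Myl4, above 99.7% or more of the tested genes. It was 0.59 for Sbk2, 0.52 for Dkk3, 0.32 for Stard10 and 0.20 for Nr2f2, and the median of all tested genes was 0.20. After removal of the group means, Sln had a Pearson r of 0.96 with Myl7 over 10 hearts. Of 11986 ranked genes outside the set, 0 had a higher r than Sln. More of them did for the other atrial genes: 18 for Myl4 (r = 0.85), 48 for Sbk2 (0.79) and 151 for Stard10 (0.70). For Dkk3 (0.61) and Nr2f2 (0.38) they were 361 and 1583. The 5 genes outside the set with the highest r to Myl7 were Sh3d21 (0.95), Tmed5 (0.92), Cfap61 (0.91), Ublcp1 (0.91) and Cnep1r1 (0.91). Without S1Pless replicate 3, r was 0.38 for Sh3d21, 0.63 for Tmed5, 0.69 for Cfap61, 0.74 for Ublcp1, 0.34 for Cnep1r1, 0.47 for Sln and -0.66 for Myl4. They are a description of 10 libraries. For Sbk2 it was 0.78. All values without that heart are over Myl7 counts of 0 to 3 reads, which are too few to be read as a level.

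Between groups, none of the 5 tested atrial genes passed edgeR's quasi-likelihood test at an adjusted p of 0.05, against 3.72% of all 12992 genes. Dkk3 and Nr2f2 made 2 of 5 below an unadjusted p of 0.05, against 19.9% of all genes. Limma-voom also called 0 of the 5. DESeq2 called none either, but it gave no adjusted p for Myl4. The median log2 fold change of the 5 genes was 0.28 in edgeR, and that of all tested genes was -0.01. Scaling set the calls at this margin: with library totals alone Nr2f2 passed (log2 fold change 0.42, adjusted p = 0.0348). With scaling to the muscle genes of both chambers Nr2f2 (0.46, adjusted p = 0.0396) and Dkk3 (0.92, adjusted p = 0.0459) passed. Those scalings moved the median of all genes up by 0.14 and 0.18 on the log2 scale. Relative to that shift Nr2f2 differed by about the same amount as with TMM scaling. In RNA from whole tissue, more cells of a type and more RNA per cell cannot be told apart.

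Sample titles carry numbers from 2 series, one with 4 control and 3 S1Pless hearts and one with 1 control and 2 S1Pless hearts, and their meaning is not stated. Within the first, the S1Pless minus control difference in mean log2 CPM was 2.02 for Myl7, 1.79 for Sln, 0.63 for Myl4, 0.84 for Dkk3, 0.37 for Nr2f2, 0.02 for Sbk2 and -0.27 for Stard10. Within the second, which does not hold S1Pless replicate 3, it was -0.53 for Myl7, -1.22 for Sln, -0.11 for Myl4, 0.48 for Dkk3, 0.09 for Nr2f2, -0.89 for Sbk2 and 0.06 for Stard10. Dkk3 and Nr2f2 were thus the only 2 of the 7 genes higher in S1Pless hearts in both series. The Myl7 and Sln differences in the second series rest on a few reads and on the prior count of 2. In the first series they come from S1Pless replicate 3. In the fit with hearts of neighbouring title numbers as a block, none of the 5 tested genes was called. Their log2 fold changes there were 0.14 for Nr2f2 (edgeR adjusted p = 0.584), 0.98 for Dkk3 (0.162), 0.61 for Myl4 (0.626), -0.12 for Stard10 (0.709) and -0.22 for Sbk2 (0.821). The second series has 1 control, so it allows no test of its own. Library numbers run through all controls and then all S1Pless hearts, so library order and group cannot be told apart.

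Other genes enriched in atria were followed as a second list. Of 14 tested, 1 was called lower, against 0.316% of all genes, and none higher, and their median log2 fold change was -0.11. The 1 called was Kcnj3, the Kir3.1 subunit of the acetylcholine-gated potassium channel, at 133, 90.6, 104, 106 and 113 CPM in control replicates 1 to 5 and 73.5, 69.7, 90.2, 78.2 and 83.6 CPM in the S1Pless replicates. The groups did not overlap, but S1Pless replicate 3 and control replicate 2 nearly met. Groups did not overlap in 6.35% of all tested genes, 4.53% higher and the rest lower like Kcnj3. Kcnj3 fell by 0.47 ± 0.11 (SE) on the log2 scale (edgeR adjusted p = 0.0314). The call was lost in 10 of 20 alternatives, over which its adjusted p ranged from 0.00130 to 0.124: with library totals, scaling to muscle genes, the block of neighbouring title numbers, and on leaving out controls 3, 4 or 5 or any S1Pless heart but replicate 3. A non-coding gene overlaps Kcnj3 on the opposite strand.

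Kcnj5, the partner subunit of Kcnj3 in that channel, had a log2 fold change of -0.35 ± 0.12 (SE, edgeR adjusted p = 0.126). Nr2f1, the relative of Nr2f2 that also acts in atrial muscle, had 0.42 ± 0.15 (SE, edgeR adjusted p = 0.128). Kcna5, a potassium channel gene, had 0.38 ± 0.14 (SE, edgeR adjusted p = 0.152). Unlike Myl7, Kcna5 was at 21.1 CPM or more in every heart. Nppa, the atrial natriuretic peptide gene that stressed ventricles also switch on, averaged 152 ± 103 CPM (control) and 186 ± 109 CPM (S1Pless; SD, n = 5 each; edgeR adjusted p = 0.832). Unlike Myl7 and Sln, Nppa was low in S1Pless replicate 3, at 77.9 CPM the ninth of the 10 hearts. Its lowest level was 21.8 CPM in control replicate 1. Of this list only 1 gene of 15 in the table, Nr2f1, was highest in S1Pless replicate 3. Mybphl had no row in the table.

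**Figure D4:**
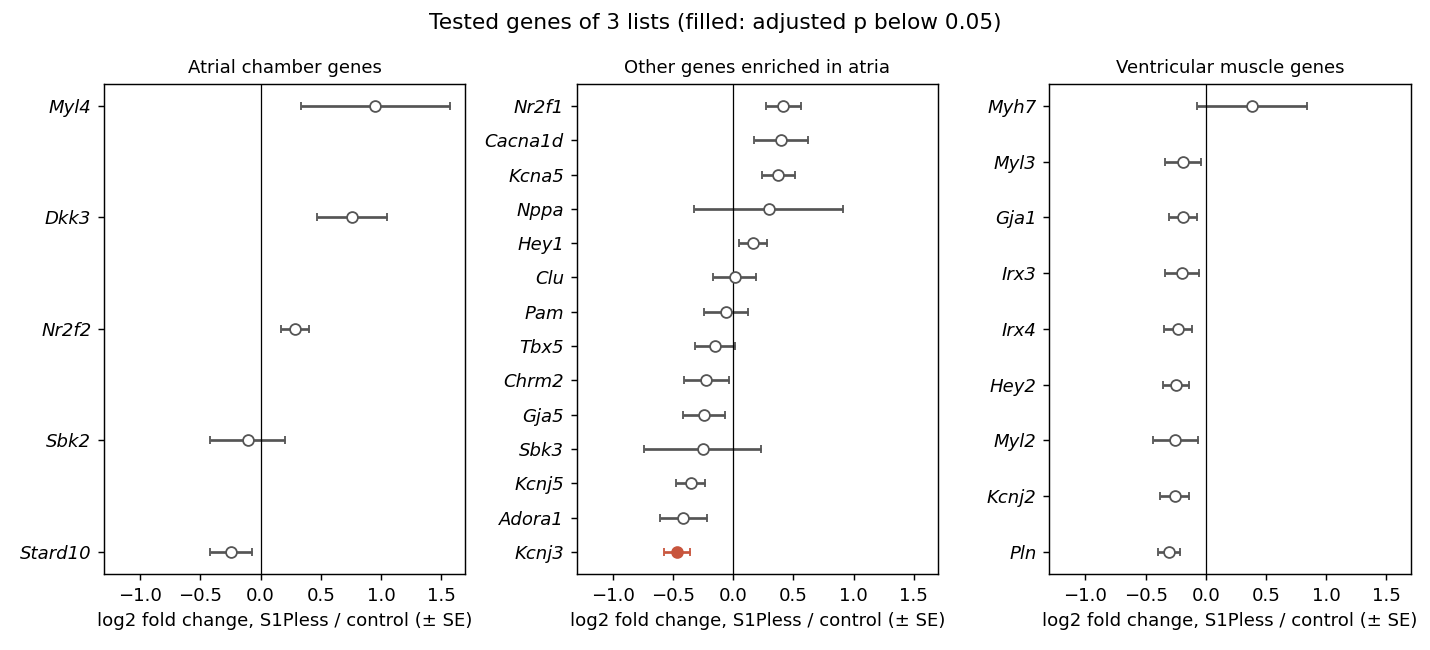
Log2 fold change (S1Pless over control, horizontal axis) with its standard error for each tested gene of 3 lists, filled where edgeR's adjusted p was below 0.05. Of the 5 atrial chamber genes none is filled, Kcnj3 at -0.47 is filled among the 14 other atrial genes, and none of the 9 ventricular genes is filled.

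Ventricular muscle genes were not called either, where 3.72% of all 12992 tested genes were. Of 9 tested, 0 were higher and 0 lower, with a median log2 fold change of -0.23 and 2 below an unadjusted p of 0.05 in edgeR's quasi-likelihood test, against 19.9% of all genes. Pln averaged 6333 ± 376 CPM (control) and 5133 ± 227 CPM (S1Pless; SD, n = 5 each). Its groups did not overlap, as in 6.35% of all tested genes, 4.53% higher and the rest lower like Pln. Its log2 fold change of -0.30 ± 0.09 (SE) missed the threshold in edgeR (adjusted p = 0.0890) and passed it in DESeq2 (adjusted p = 0.000173). Myl2 and Myl3 had log2 fold changes of -0.25 and -0.19 (adjusted p = 0.486 and 0.522). Of 14 genes shared by muscle of both chambers none was called, with a median of -0.15. A list of 9 or 14 genes can hold 0 calls at a share of 3.72%. Of the 14 shared genes 0 leaned higher, and of the 9 ventricular genes 1 did, against 6163 of 12992 tested genes. The summed level of the shared genes was 71887 to 75397 CPM (control) and 59609 to 68995 CPM (S1Pless), without overlap. As a percent of all reads the groups overlapped, at 6.35 to 7.42 (control) and 6.34 to 7.24 (S1Pless). The labelled tissue thus carried its defining genes in every library. S1Pless replicate 3, at a summed 68672 CPM, was within the range of its group. Of the ventricular genes, Irx4 (24.5 CPM), Hey2 (6.03 CPM) and Gja1 (320 CPM) were lowest of all 10 hearts there, and Kcnj2 (68.8 CPM) was highest. Of the shared genes, Actc1, Mybpc3 and Tbx20 were lowest there and 0 were highest.

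Genes that act with the atrial set were examined by role. As 3.72% of all 12992 tested genes were called, lists of 4 to 10 genes can hold 0 calls by their size alone. Besides Sln and Pln, the calcium pump gene Atp2a2 had a log2 fold change of -0.37 ± 0.17 (SE, edgeR adjusted p = 0.253), and 0 of 4 tested pump regulators were called. Bmp10 itself, the atrial growth factor, has no row, and of 10 tested genes for its receptors and targets 0 were called, with a median of 0.03. The target Id3 had the smallest p of them, with a log2 fold change of 0.29 ± 0.10 (SE, edgeR adjusted p = 0.118), and it passed with library totals and with scaling to muscle genes. Of 5 tested genes of the sinoatrial node, the pacemaker of the right atrium, 0 were called, and Isl1, one of its defining genes, had no read in any heart. S1Pless replicate 3 held the highest level of 1 of the 7 sinoatrial genes.

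Several atrial genes are also made by other cells, so markers of those cells were set beside them. Of 6 tested genes of venous endothelium 1 was called higher, against 3.4% of all genes. It was Nrp2, a co-receptor for VEGF and semaphorins, at 64.4 ± 7.04 CPM (control) and 114 ± 12.6 CPM (S1Pless; SD, n = 5 each). Its groups did not overlap, as in 4.53% of all tested genes in that direction. This log2 fold change of 0.82 ± 0.10 (SE) passed edgeR's quasi-likelihood test (adjusted p = 0.00214) and held in all 20 alternatives. Ephb4 and Aplnr were not called, at log2 fold changes of 0.25 and 0.56 (edgeR adjusted p = 0.204 and 0.233). Vwf and Emcn leaned lower, at -0.06 and -0.12 (edgeR adjusted p = 0.806 and 0.731). Summed venous markers, Nrp2 and Nr2f2 among them, reached 302 to 348 CPM (control) and 369 to 440 CPM (S1Pless). Lymphatic endothelium, which also makes Nr2f2, had 4 of 7 tested genes called higher (Reln, Ccl21a, Mmrn1 and Lyve1), against 3.4% of all genes, and summed to 130 to 171 CPM and 161 to 209 CPM. The rest of the list was not called. Pdpn and Flt4 had log2 fold changes of 0.41 and 0.24 (edgeR adjusted p = 0.317 and 0.0988). Prox1 went the other way, at -0.34 (edgeR adjusted p = 0.218). Each of the 4 lymphatic calls was lost without control replicate 3 and without control replicate 4. The block of neighbouring title numbers also ended the calls of Reln (edgeR adjusted p = 0.0761) and Lyve1 (0.244), and the title series as a covariate that of Lyve1 (0.0592). Leaving out control 2, control 5, S1Pless replicate 1 or S1Pless replicate 5 also ended the call of Mmrn1. That of Lyve1 ended on leaving out control 5, S1Pless replicate 2 or S1Pless replicate 5. The part of endothelial cells in the Nr2f2 values was not tested.

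Fibroblast markers, read beside the secreted protein Dkk3, were not called in 9 of 9 cases, where 3.72% of all genes were called. Their median log2 fold change was 0.19. Their sums were 1009 to 1223.9 CPM (control) and 1223.9 to 1833 CPM (S1Pless). Col1a2 had the smallest p among them, with a log2 fold change of 0.55 ± 0.16 (SE, edgeR adjusted p = 0.0761), and it passed with those scalings and in DESeq2. In the epicardial list, Wt1 was the only gene tested and rose by 0.60 ± 0.13 (SE) on the log2 scale (edgeR adjusted p = 0.0241), a call lost in 5 of 20 alternatives, the block and the fits that left out controls 3, 4 or 5 or S1Pless replicate 5. Macrophage markers were called higher in 3 of 8 cases, Csf1r, C1qa and Mrc1, against 3.4% of all genes, with a median of 0.87. Each of these calls was lost on leaving out control 2, 3, 4 or 5 and with the block of neighbouring title numbers (edgeR adjusted p = 0.118, 0.272 and 0.230). C1qa and Mrc1 were also lost with the title series as a covariate (0.0673 and 0.0633), and C1qa without S1Pless replicate 1. Wt1 was highest of all 10 hearts in S1Pless replicate 3, at 12.9 CPM. By sums of markers that heart lay inside the range of its group. The sums were 376 CPM for venous, 179 CPM for lymphatic, 1327 CPM for fibroblast and 296 CPM for macrophage markers. Their part in the atrial values was not tested.

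Tissue that adjoins the atria could also come along with a heart. Of the lung markers, Sftpc had no read in any heart and 3 of the 5 had no row. The remaining lung gene, Ager, was highest in S1Pless replicate 3 at 0.812 CPM, from 14 reads, and had 0.150 to 0.723 CPM in the other 9 hearts. Its part in the atrial values was not tested. Thymus markers summed to 0.980 to 2.98 CPM, and 5 of 6 had no row. Markers of smooth muscle of large vessels, such as those at the base of the heart, summed to 221 to 344 CPM (control) and 239 to 271 CPM (S1Pless). They stood at 252 CPM in S1Pless replicate 3. None of the 6 tested genes was called, where 3.72% of all genes were, and 1 was highest in S1Pless replicate 3.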

How the data were processed

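Total RNA from cardiac tissue was sequenced with a stranded mRNA kit, per the labels' protocols. The authors deposited 1 table of raw read counts per Ensembl gene with a column per heart. Per the submitters' processing notes, reads were handled with STAR 2.7.8a, featureCounts 2.0.1 and build GRCm39. The sources used here do not say which annotation was counted, whether strand was used, how multi-mapped reads were treated or how genes were selected. Symbols came from GENCODE M21 (20 genes had none), as did exon lengths. That annotation is of build GRCm38, so coordinates are given only for RefSeq promoter windows.

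Samples were grouped by the genotype in the labels, and replicates were numbered in accession order. The labels give each heart as a separate sample and the controls as littermates, but not which animals shared a litter. In all 20 pairs of replicates the counts differed beyond sampling noise (lowest chi-square per degree of freedom 10.5). The members and lists were chosen with earlier results of these data known.

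The group comparison used the quasi-likelihood test of edgeR 4.0.16 (R 4.3.3; robust glmQLFit, then glmQLFTest) after TMM scaling, on the 12992 genes that filterByExpr kept at a minimum count of 10. Its p-values were two-sided and adjusted by Benjamini-Hochberg, and genes below 0.05 were called. The biological coefficient of variation was 15.2%. CPM are those counts scaled by TMM; log2 CPM used a prior count of 2. Ratios within a heart were tested between groups by exact permutation of samples, two-sided. Zero counts made 0.5 necessary for the ratios of Myl7 and Sln, which departs from the plan. Limits for counts of 0 are 3 reads, and all intervals are at 95% and cover counting error only. The test was tried on simulated counts.

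Genes outside the set were to be named by rule: the kinases, the ventricular counterparts, Nppa, up to 3 called genes of each list or the 1 with the smallest p, and the 5 genes most like Myl7. Of these, only those a result turns on are described. Kcnj5, Nr2f1, Kcna5, Atp2a2, Lyve1 (the fourth called gene of its list), Prox1, Pdpn, Flt4 and 2610028H24Rik were named after their values were seen. So were Ephb4, Aplnr, Vwf, Emcn, Irx4, Hey2, Gja1, Kcnj2, Actc1, Mybpc3 and Tbx20. Alternatives were RLE and upper-quartile factors, library totals, scaling to muscle genes, DESeq2 1.42.0, limma-voom 3.58.1 with quality weights, a filter of 1 CPM in 5 libraries, no filter, covariates for the title series and for an atrial score, a block of neighbouring title numbers, and leaving out each heart. A count of 1 added to the ratios was chosen after seeing the data.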

Additional observations from a re-analysis of the deposited data

Results flagged for a closer look

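The cutoff used for a heart that stood apart flags about 1 in 20 independent sets of normally distributed values. The sets here share reads and include genes with few reads, so no number expected by chance can be given. A heart stood apart from the other 4 of its group in 11 of 64 sets of values examined. In 4 of them it was S1Pless replicate 3, far above its group: Myl7 at 9.69 CPM (others 0 to 0.142), Sln at 4.29 CPM (others 0 to 0.0474), Myl4 at 18.2 CPM (others 1.65 to 3.27) and the log2 ratio of Sln to Pln at -10.19 (others -17.73 to -16.08). Stard10 was also apart there, at 27.6 CPM where the rest of its group had 15.4 to 16.3, but lay close to the highest control at 24.8 CPM. Control replicate 5 stood apart from the other controls in Sln, at 0.168 CPM against 0, and in the log2 ratio of Sln to Pln, at -15.12 against -17.87 to -17.54. Both of these control values come from 3 reads. The rest were genes outside the atrial set: Id3 in S1Pless replicate 1 at 61.8 CPM (others 43.7 to 46.7), Reln in S1Pless replicate 2 at 18.6 CPM (others 10.6 to 12.3), Csf1r in S1Pless replicate 5 at 127 CPM (others 56.4 to 71.5) and Mrc1 in the same heart at 84.9 CPM (others 44.5 to 52).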

How the results depend on the processing

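Calls over all genes moved with the processing, and the atrial genes rarely crossed the threshold. Against 442 genes higher and 41 lower, library totals gave 1419 and 13, scaling to muscle genes 1520 and 8, DESeq2 764 and 264, and the block of neighbouring title numbers 80 and 8; leaving out 1 heart gave 118 to 504 and 8 to 85. The lowest counts came without control replicate 3 (118 and 8) and without control replicate 4 (122 and 9). Atrial genes called were 1 with library totals and 2 with scaling to muscle genes, and 0 to 0 when a heart was left out. The S1Pless minus control difference in the log2 ratio of Myl4 to Myl3 ranged from -0.14 (without S1Pless replicate 3) to 0.82 when a heart was left out, that of Myl7 to Myl2 from 0.18 to 2.44, and that of Sln to Pln from 0.30 to 2.19. Directions of single genes reversed for Sbk2 with library totals (0.029) and with scaling to muscle genes (0.061). When a heart was left out, the log2 fold change of Sbk2 ranged from -0.41 (without S1Pless replicate 3) to 0.067 (without control replicate 5), that of Myl4 from -0.21 (without S1Pless replicate 3) to 1.19, and that of Nppa from -0.024 (without S1Pless replicate 2) to 0.58. The causes were not tested. The labels share no replicate numbers between the groups. The block was built from title numbers that lie within 90 of the next, and whether these mark a shared litter or day is not stated. Depth limits Myl7 and Sln, for which 1 read was worth 0.0451 to 0.0658 CPM, so levels below 3 reads could not be told from 0.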
